A study of Mus musculus with 6 samples.

Results

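The genes described here are Trp63 and 40 further genes of surface epithelia, namely keratins, desmosome components, claudins and other adhesion genes, epithelial transcription factors and barrier genes. The members are all probe sets that the array's platform annotation assigns to exactly 1 of these 41 gene symbols. They came to 79 of the 45037 probe sets tested and to 40 of the 18193 genes with a probe set of their own. No probe set named Dsg3 alone, and 1 further probe set that the annotation gives to both Krt14 and Krt17 was left out.

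Expression was measured on oligonucleotide arrays in ocular lenses of mouse embryos at E19.5, with a genetic background of C57BL/6 mixed with FVB/N. The wild type group was 3 littermate controls in which Notch2 had not been ablated in the lens, and the notch2 mutant group was 3 littermates with a conditional, lens-specific ablation of Notch2, a receptor of the Notch pathway. Each array carried the RNA of the 2 pooled lenses of 1 embryo, and the titles number them as biological replicates, so n = 3 per group throughout. The Cre line and the deleted exons are not given in the sources used here, and the 2 Notch2 probe sets, at 0.49 (SE 0.45) and -0.42 (SE 0.21) with overlapping groups, do not check the genotypes.

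The deposited values are log2 values that had been centred so that the median of every probe set is 0 across the 6 arrays. They give differences between arrays and no level, so whether a gene was expressed in the lens at all, and whether the tissue carried its defining markers, cannot be read from them. Differences are mutant minus wild type on the log2 scale, where 1 is a 2-fold change, with the standard error (SE), the 95% confidence interval and the adjusted p of limma, a linear model fitted over all 45037 probe sets. A gene is said to have risen or fallen where the adjusted p was under 0.05. In a whole lens, fewer cells of a type and less RNA per cell cannot be told apart.

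Trp63 encodes p63, the transcription factor that marks and maintains the basal cells of stratified epithelia such as epidermis, cornea and conjunctiva. Keratins form the intermediate filaments of epithelial cells as pairs of a type I and a type II chain, with Krt5 and Krt14 in basal cells, Krt12 in the corneal epithelium, Krt4 and Krt13 in conjunctiva and other mucosae, and Krt8 and Krt18 in simple epithelia. Desmosomes anchor these filaments at cell contacts through desmogleins, desmocollins, plakophilins, plakoglobin and desmoplakin, while claudins and occludin seal tight junctions. The lens and the corneal epithelium both arise from the surface ectoderm of the head, and the mature lens epithelium carries E-cadherin but no stratified layers.

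Neither Trp63 nor any other surface epithelium gene passed the test in mutant lenses. Of the 79 probe sets 0 were called, against 0.469% of all probe sets (211 of 45037), and the smallest adjusted p was 0.309, for Ocln. The differences were split almost evenly, 39 above and 40 below 0, with a median of -0.00095 beside -0.02 over all probe sets. They ran from -0.59 for a Grhl2 probe set to 0.48 for an Ocln probe set. Their median size of 0.16 lay beside 0.17 over all probe sets, but only 1 of the 79 (1.27%) differed by more than 0.5, against 9.05% of all. At an unadjusted p under 0.05 there were 4 members, or 5.06%, beside a background of 11.6%. The mutant and wild type values did not overlap in 8 members, or 10.1%, 4 higher and 4 lower in mutants, beside a background of 17.8%.

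The number of arrays limits how small a change could be seen, so the intervals matter as much as the missing calls. The confidence interval lay within a 2-fold change in either direction for 77 of the 79 probe sets (97.5%, against 90.2% of all probe sets), the others being 1 probe set each of Grhl2 and Klf4. It lay within 0.5 on the log2 scale for 16 of the 79, a smaller share than over all probe sets (12210 of 45037). The SE ranged from 0.14 to 0.44 with a median of 0.19, beside a median of 0.19 over all probe sets. These intervals limit the change of a probe set's signal. With no detection call, a probe set reading background would also give a narrow interval around 0, so they do not limit the change of a transcript.

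**Figure D1:**
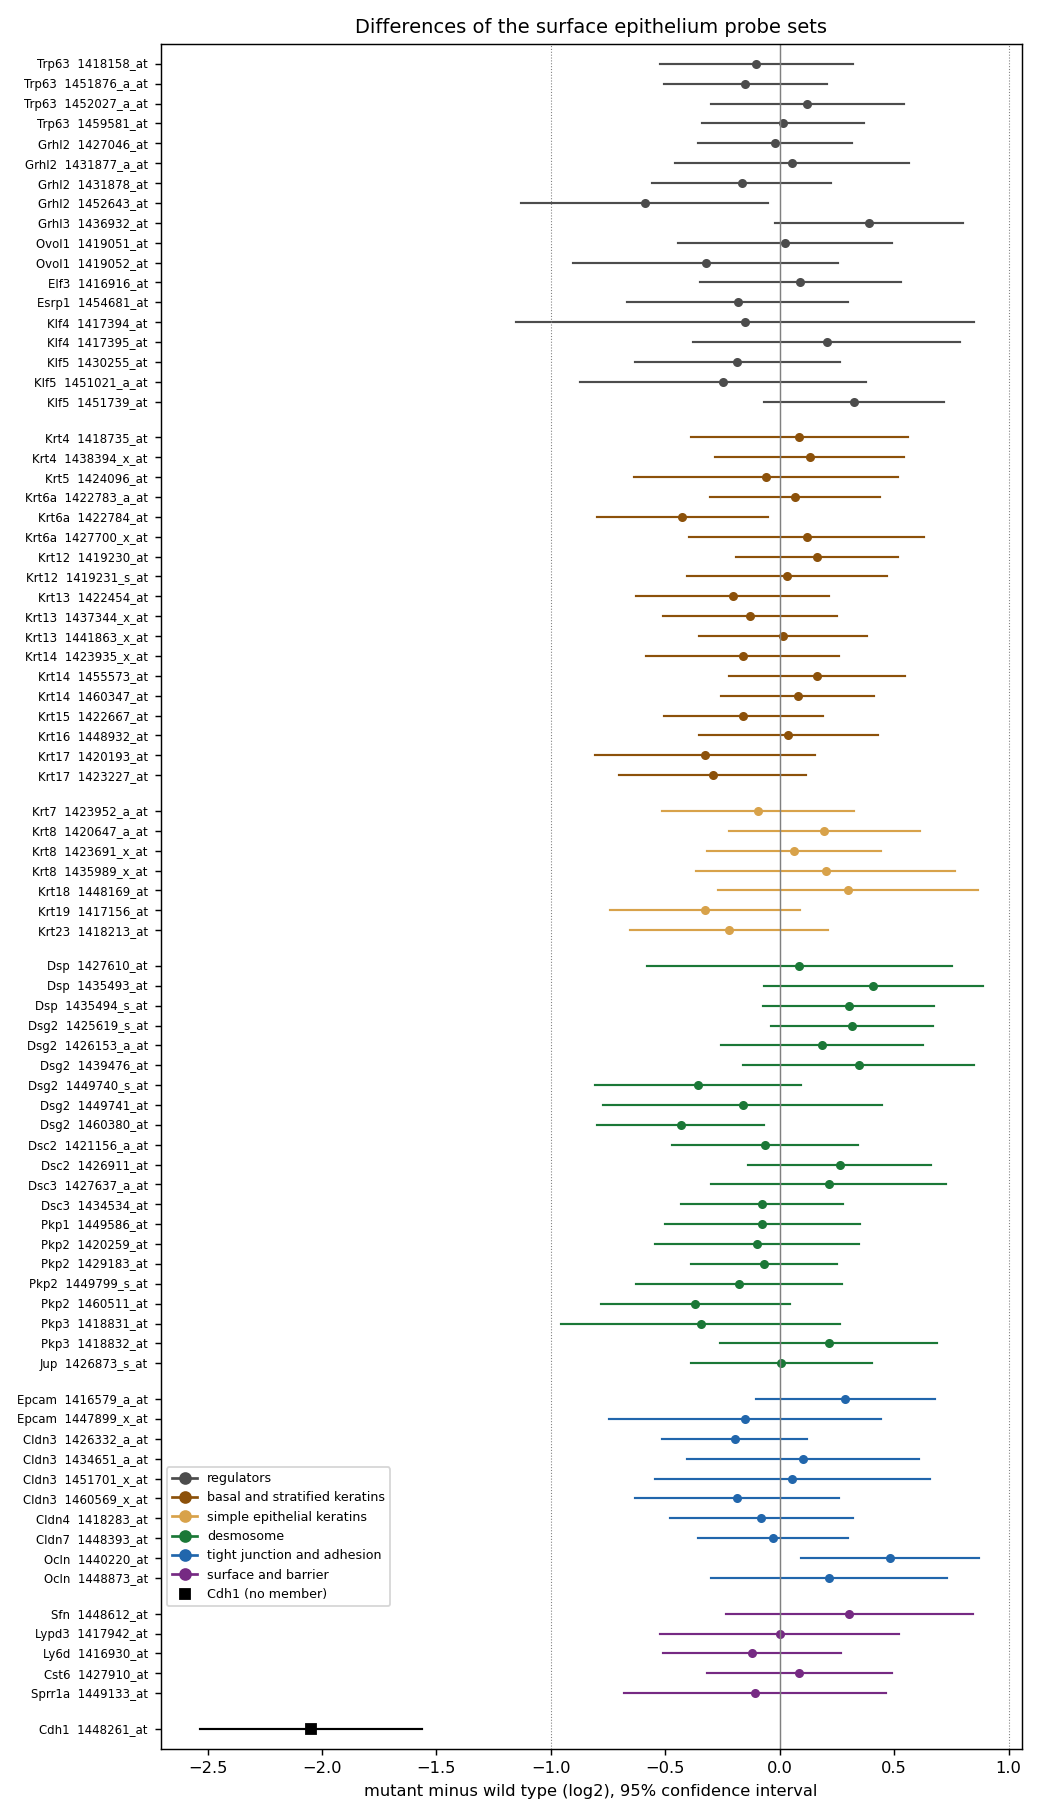
Difference between mutant and wild type lenses (log2, points) with its 95% confidence interval (lines) for the 79 probe sets, grouped by role, with E-cadherin (Cdh1, square) for comparison and dotted lines at a 2-fold change. The points lie between -0.59 and 0.48, while Cdh1 lies at -2.05 with an interval from -2.53 to -1.56.

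Many of these genes share a short sequence around their start. Of the 41 genes, 21 were matched by symbol in a RefSeq table of promoters (assembly GRCm38.p6, from 250 bases before to 50 bases after the start), and 15 of the 21 (71.4%) held the E-box CAGGTG on either strand, against 22.6% of the 27025 genes of that table. This 6-letter E-box is the sequence that the Snail and Zeb repressors of epithelial genes are known to bind. The 250 bases before the start of 5 of the 15 genes are printed because they carry that match in a keratin pair, 2 junction genes and a regulator. They are written 5′ to 3′ along the gene's strand with the E-box, or its reverse complement, in capitals:
Krt8, chr15:102004343-102004592, minus strand: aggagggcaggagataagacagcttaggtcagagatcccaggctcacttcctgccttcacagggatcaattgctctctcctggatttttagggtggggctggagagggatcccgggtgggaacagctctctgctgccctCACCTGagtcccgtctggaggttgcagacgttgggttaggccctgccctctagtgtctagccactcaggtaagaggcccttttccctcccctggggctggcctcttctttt
Krt18, chr15:102027966-102028215, plus strand: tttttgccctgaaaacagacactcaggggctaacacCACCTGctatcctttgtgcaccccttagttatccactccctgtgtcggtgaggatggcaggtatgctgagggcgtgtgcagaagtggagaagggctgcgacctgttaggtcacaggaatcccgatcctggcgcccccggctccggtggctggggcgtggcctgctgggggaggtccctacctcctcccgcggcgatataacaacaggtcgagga
Epcam, chr17:87635729-87635978, plus strand: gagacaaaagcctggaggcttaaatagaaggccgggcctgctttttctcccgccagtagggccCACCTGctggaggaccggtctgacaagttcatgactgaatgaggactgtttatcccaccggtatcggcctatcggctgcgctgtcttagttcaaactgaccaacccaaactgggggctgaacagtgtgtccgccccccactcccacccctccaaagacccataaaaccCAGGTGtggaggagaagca
Cldn4, chr5:134946935-134947184, minus strand: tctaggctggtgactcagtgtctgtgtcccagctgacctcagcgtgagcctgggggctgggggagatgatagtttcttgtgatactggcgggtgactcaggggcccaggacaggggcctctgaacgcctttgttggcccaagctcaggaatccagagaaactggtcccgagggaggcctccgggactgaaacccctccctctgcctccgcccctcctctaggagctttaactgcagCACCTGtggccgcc
Grhl3, chr4:135573633-135573882, minus strand: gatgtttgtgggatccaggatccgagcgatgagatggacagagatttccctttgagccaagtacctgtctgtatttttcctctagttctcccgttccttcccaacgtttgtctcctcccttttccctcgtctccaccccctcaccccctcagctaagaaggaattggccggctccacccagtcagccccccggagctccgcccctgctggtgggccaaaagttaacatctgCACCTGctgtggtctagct

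The matches lay 111 bases before the start in Krt8, 214 in Krt18, 187 and 19 in Epcam, 14 in Cldn4 and 19 in Grhl3, counted to the first base of the match. The other 10 genes with a match were Krt5, Krt7, Krt23, Sfn, Dsp, Cldn3, Cldn7, Ocln, Elf3 and Sprr1a. Wholly before the start, the E-box was in 13 of the 21 genes (61.9%, against 19.4% of all), since Dsp and Cldn3 hold it only after the start. None of the 21 distinct E-box sites overlapped another motif searched. Together, 7 motifs were searched on both strands. The GC box CCGCCC was in 52.4% of the 21 genes against 38.2% of all, and the Klf core CCNCACCC in 38.1% against 18.4%. The TATA box TATAAA was in 14.3% against 15.7%, the Grainyhead core AACNNGTT in 4.76% against 4.77%, the p53 family site in 9.52% (Krt5 and Dsp) against 9.55%, and the CArG box in 4.76% against 1.81%. A match of letters is a description and not a bound site. Snai1, Snai2, Zeb1 and Zeb2, chosen after the matches were seen, had 12 probe sets. Of these 0 were called and 0 had an unadjusted p under 0.05, beside 0.469% and 11.6% of all probe sets. Their differences lay between -0.30 and 0.22, but the outermost bounds of their intervals were -1.09 and 0.69.

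Among the regulators, Trp63 was measured by 4 probe sets, none of which separated the genotypes. The probe set 1418158_at read -0.04, 0.04 and 0.24 on the wild type arrays 1 to 3, against -0.07, 0.29 and -0.29 on the mutant arrays 1 to 3. Its highest and its lowest value were both in mutants, and the difference was -0.10 (SE 0.19, interval -0.52 to 0.32, adjusted p = 0.890). The probe set 1451876_a_at read -0.0050, 0.0050 and 0.33 against 0.02, -0.10 and -0.03, a difference of -0.15 (SE 0.16, interval -0.51 to 0.21). Here wild type 3 stood above the other 5 arrays, which lay between -0.10 and 0.02.

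The other Trp63 probe sets had differences above 0. The probe set 1452027_a_at read -0.05, -0.36 and 0.19 against -0.14, 0.05 and 0.22 (difference 0.12, SE 0.19, interval -0.30 to 0.54), and 1459581_at read -0.06, -0.11 and 0.23 against 0.04, -0.04 and 0.11 (0.015, SE 0.16, interval -0.34 to 0.37). In each, wild type 3 was among the highest arrays and wild type 2 the lowest. The sign of 3 of the 4 differences turned when single arrays were left out, with ranges of -0.26 to 0.03 for 1418158_at, -0.02 to 0.25 for 1452027_a_at and -0.05 to 0.12 for 1459581_at. The outermost bounds of the 4 intervals were -0.52 and 0.54, which limits these probe signals and not the Trp63 transcript.

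**Figure D2:**
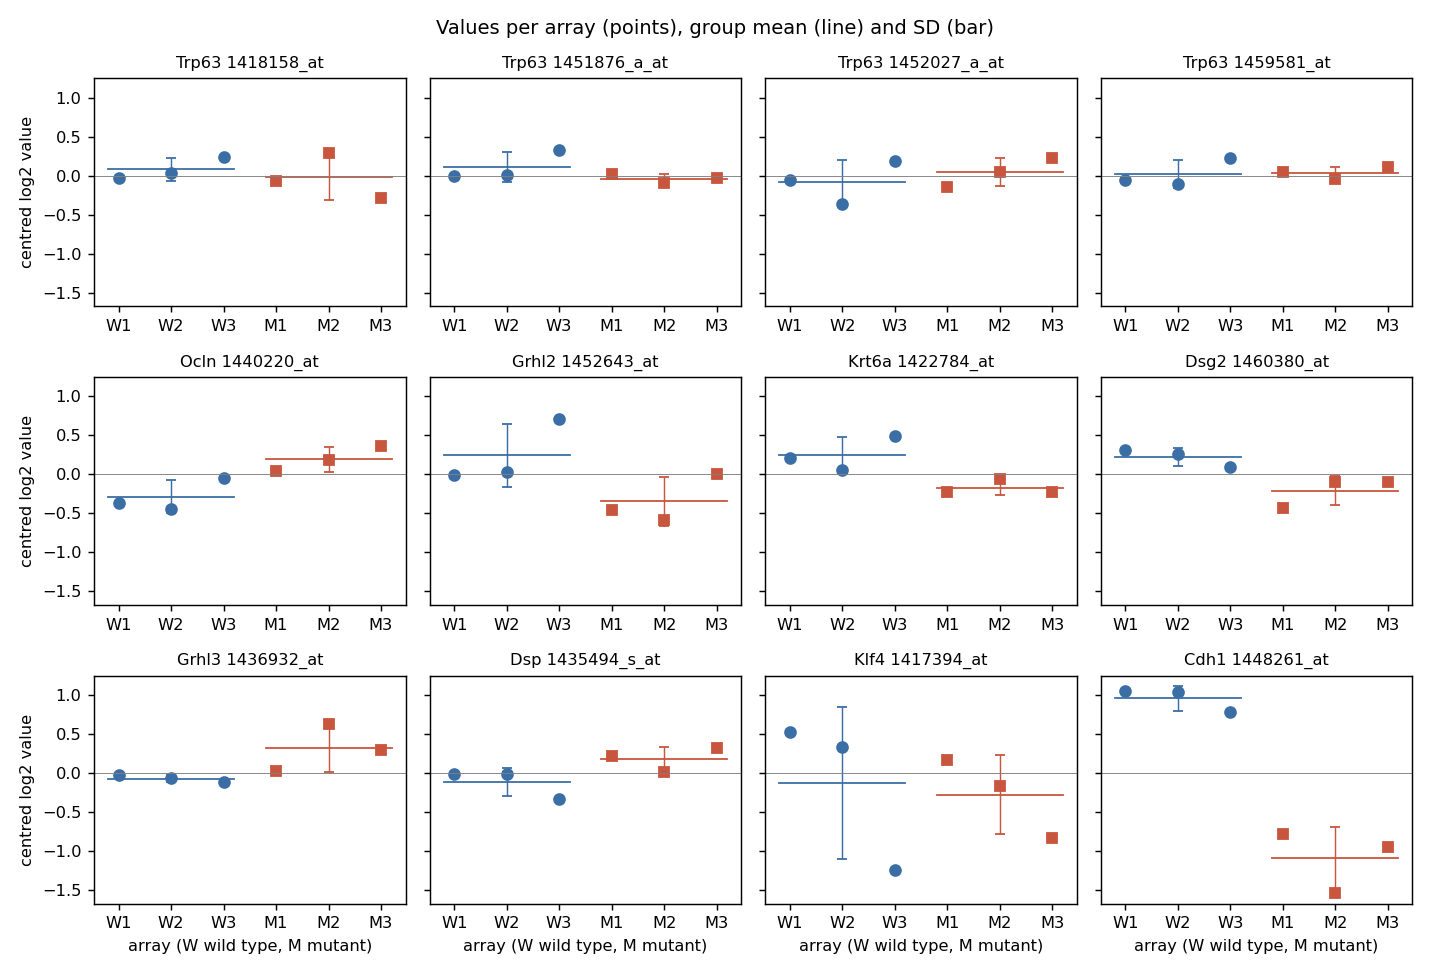
Centred log2 value on each array (W wild type, circles; M mutant, squares) for the 4 Trp63 probe sets, 7 other surface epithelium probe sets and Cdh1, with the group mean (line) and SD (bar, n = 3). The Trp63 groups overlap, whereas the mutant Cdh1 values lie between -1.54 and -0.78 and the wild type ones between 0.78 and 1.06.

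The remaining 7 regulators were measured by 14 probe sets, of which 0 were called. Grhl2 and Grhl3 encode grainyhead-like factors, which switch on junction genes in many epithelia. The Grhl2 probe set 1452643_at had the lowest difference of all members, with -0.0087, 0.03 and 0.71 against -0.46, -0.59 and 0.0087. Mutant 1 and mutant 2 were lowest and wild type 3 was highest, but mutant 3 lay between wild type 1 and wild type 2, and the difference of -0.59 (SE 0.24, interval -1.13 to -0.05) had an adjusted p of 0.380. The other 3 Grhl2 probe sets differed by -0.17, -0.02 and 0.05, so the gene's probe sets did not share the size of the first. Grhl3 read -0.03, -0.07 and -0.12 against 0.03, 0.63 and 0.30, every mutant above every wild type array, with a difference of 0.39 (SE 0.18, adjusted p = 0.461).

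Klf5, a factor of proliferating epithelial cells, had probe sets at -0.25, -0.19 and 0.32. Ovol1, a repressor that guards epithelial identity, stood at 0.02 and -0.32, Elf3, an epithelium-restricted Ets factor, at 0.09, and Esrp1, a splicing regulator of epithelial cells, at -0.18 with 1 mutant array (mutant 2, -0.67) below the other 5. Over the 18 regulator probe sets the median difference was -0.06.

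Klf4, a factor of barrier-forming epithelia, varied more between arrays than any other member, and not by genotype. The probe set 1417394_at read 0.53, 0.33 and -1.24 against 0.16, -0.16 and -0.83. Its standard deviation over the 6 arrays, 0.70, was higher than that of 98.6% of all probe sets, and its interval of -1.15 to 0.85 left the widest range of any member. The second Klf4 probe set read 0.34, -0.02 and -0.70 against 0.02, 0.32 and -0.11. In both, wild type 3 was the lowest array. The differences were -0.15 (SE 0.44) and 0.21 (SE 0.26), and the first was -0.71 without wild type 3 and 0.18 without wild type 1.

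The keratins of basal and stratified layers gave 18 probe sets for 9 genes, with 0 called, 10 differences above and 8 below 0, and a median of 0.02. Krt5 and Krt14, the pair of basal cells, gave differences of -0.06 (SE 0.26) for Krt5 and of -0.16, 0.16 and 0.08 for the 3 Krt14 probe sets. Krt5 was high in wild type 3 (0.55) and mutant 2 (0.58) and lay between -0.26 and 0.05 on the other arrays. Krt15, another basal keratin, read 0.03, 0.0035 and 0.31 against -0.03, -0.0035 and -0.10, every mutant below every wild type array by a small step (-0.16, SE 0.15, adjusted p = 0.764).

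Krt12, the keratin of the corneal epithelium, stood at 0.16 (SE 0.16, interval -0.19 to 0.52) and 0.03. The conjunctival keratins gave 0.09 and 0.13 for Krt4 and -0.21, -0.13 and 0.015 for Krt13. The mutant and wild type values overlapped in every one of these probe sets. The injury-induced keratins Krt6a, Krt16 and Krt17 were mixed. The Krt6a probe set 1422784_at read 0.21, 0.06 and 0.49 against -0.23, -0.06 and -0.23, with no overlap and a difference of -0.43 (SE 0.17, interval -0.80 to -0.05, adjusted p = 0.356), but the 2 other Krt6a probe sets stood at 0.07 and 0.12. Krt17 stood at -0.33 and -0.29 and Krt16 at 0.04. Krt6a, Krt14, Krt16 and Krt17 have close relatives in the keratin clusters, so how far their probe sets read a single gene is uncertain.

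The 5 simple epithelial keratins had 7 probe sets, with 0 called. Krt8 and its partner Krt18, whose promoters are printed above, had all their differences above 0, Krt8 with 0.20, 0.06 and 0.20 and Krt18 with 0.30 (SE 0.25, interval -0.27 to 0.87). The Krt18 difference came from a single array, since mutant 1 read 0.82 while mutant 2 and 3 read 0.07 and -0.21 and wild type 0.04, -0.04 and -0.21. Without mutant 1 it was -0.00035. Krt19, found in conjunctiva and ductal epithelia, read 0.53, -0.05 and 0.43 against 0.04, -0.04 and -0.08 (-0.33, SE 0.18, adjusted p = 0.564). Krt23 stood at -0.22 and Krt7 at -0.09.

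Desmosome genes gave 21 probe sets for 8 genes, 10 above and 11 below 0, with 0 called and a median of -0.06. Desmoplakin (Dsp), which ties the plaque to keratin filaments, had all 3 probe sets above 0, at 0.41 (SE 0.21), 0.30 (SE 0.17) and 0.09 (SE 0.29). Its probe set 1435494_s_at read -0.01, -0.01 and -0.33 against 0.22, 0.01 and 0.32 with no overlap, but mutant 2 at 0.01 lay next to wild type 1 and 2 at -0.01. Dsc2 stood at -0.06 and 0.26 and Dsc3 at -0.08 and 0.21, both desmosomal cadherins.

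Dsg2, the desmoglein of simple and basal epithelia, was the member with the most probe sets, and they disagreed. Of its 6 probe sets 3 lay above 0 (0.32, 0.19 and 0.34) and 3 below (-0.36, -0.16 and -0.43). The probe set 1460380_at read 0.31, 0.26 and 0.10 against -0.43, -0.10 and -0.10, all mutants below all wild type arrays (-0.43, SE 0.16, interval -0.80 to -0.07, adjusted p = 0.333). The probe set 1425619_s_at read -0.22, -0.0057 and -0.17 against 0.31, 0.0057 and 0.24, all mutants above (0.32, SE 0.16, adjusted p = 0.495). Both separated the groups, in opposite directions, so no direction can be given for the gene. The sources used here do not say which transcripts each probe set reads.

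The plakophilins, plaque proteins that cluster desmosomal cadherins, had all differences below 0 in Pkp2, whose 4 probe sets lay between -0.37 and -0.07. The lowest, 1460511_at (SE 0.18, adjusted p = 0.497), read 0.13, 0.00 and 0.39 against -0.47, -0.12 and 0.00. Pkp3 stood at -0.35 and 0.21, the first set by wild type 3 at 0.98 while the other 5 arrays lay between -0.22 and 0.18, and Pkp1 stood at -0.08. Plakoglobin (Jup), which is shared by desmosomes and cadherin junctions, was at 0.0068 (SE 0.18, interval -0.39 to 0.40).

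Tight junction and adhesion genes gave 10 probe sets for 5 genes, 5 above and 5 below 0, with 0 called. Ocln, which encodes occludin, had the highest difference and the smallest p of all members. Its probe set 1440220_at read -0.36, -0.45 and -0.04 against 0.04, 0.19 and 0.36, that is, from -0.28 ± 0.21 to 0.20 ± 0.16 (SD, n = 3). All mutants lay above all wild type arrays, yet the difference of 0.48 (SE 0.17, interval 0.09 to 0.87, 1.40-fold) did not pass. The second Ocln probe set overlapped, at 0.22 (SE 0.23), with mutant 1 highest (0.58) and mutant 3 lowest (-0.33).

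Epcam, an adhesion molecule of simple epithelia, gave 0.29 (SE 0.17) and -0.15 (SE 0.26). Of the claudins, Cldn3 had 4 probe sets between -0.20 and 0.10. One of them read 0.08, 0.05 and 0.15 against -0.11, -0.15 and -0.05, a small step without overlap (-0.20, SE 0.14, adjusted p = 0.668). Cldn4 and Cldn7 stood at -0.08 (SE 0.18) and -0.03 (SE 0.15). Ocln, Epcam, Cldn3, Cldn4 and Cldn7 all hold the E-box described above, and their differences fell on both sides of 0.

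The 5 surface and barrier genes had 1 probe set each, and 0 were called. Sfn, the 14-3-3 protein of stratified epithelia, was at 0.30 (SE 0.24) with mutant 3 at 0.84 and the other mutants at -0.01 and 0.01. Ly6d and Lypd3, surface proteins of squamous cells, were at -0.12 (SE 0.17) and -0.00095 (SE 0.23). Cst6, a protease inhibitor of the skin barrier, was at 0.09, and Sprr1a, a component of the cornified envelope, at -0.11. Sprr1a was high in wild type 3 (0.68) and mutant 3 (0.54) and lay between -0.14 and 0.08 elsewhere.

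Agreement between probe sets of a gene was limited. Of the 21 genes with several probe sets, 14 had differences of both signs and 7 of a single sign, namely Dsp, Ocln, Krt8, Krt17, Krt4, Krt12 and Pkp2. The other 19 genes had 1 probe set.

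The surface epithelium genes varied between arrays in a way that did not follow genotype. Wild type 3 held the highest value of the 6 arrays in 29 of the 79 probe sets (36.7%), against 25.9% of all probe sets, and wild type 1 and 2 in 7.59% and 6.33%, against 12.1% and 11.2% of all. The median over the members was 0.14 in wild type 3 and lay between -0.07 and 0.01 on the other arrays. Wild type 3 also had the largest standard deviation over all probe sets, 0.384 against 0.223 to 0.332.

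The hybridization controls of the arrays, bacterial and phage P1 sequences added to the labelled sample, split the arrays across genotype. Their mean includes Cre probe sets, and whether these also read a Cre transgene was not tested. The wild type arrays averaged -0.99, -1.50 and 0.99, against -1.48, 1.48 and 1.08 for the mutant arrays in the order of their numbers, so wild type 3, mutant 2 and mutant 3 were high. The 3 high and 3 low arrays did not overlap in 14 of the 79 members (17.7%, against a background of 21.4%). Of these members 12 were higher and 2 lower on the high arrays, beside 4972 higher and 4650 lower of all 45037 probe sets. The share of members was thus above the background for higher values and below it for lower ones. The 12 included 1 probe set of Trp63 (0.34 higher), 2 of Cldn3, 2 of Krt6a and those of Sfn, Lypd3 and Cst6, and the lower ones were Klf4 1417394_at (by -1.09) and a Pkp2 probe set. The median high minus low difference was 0.14 over the members and 0.03 over all probe sets.

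With this split as a block in the model, 0 members were called and the smallest adjusted p was 0.116, for Pkp2. At an unadjusted p under 0.05 the count rose from 4 (5.06%) to 14 (17.7%) of the 79 members. Over all 45037 probe sets it rose from 5214 (11.6%) to 8550 in the same fit, a slightly larger share than the 17.7% of the members. Of all 45037 probe sets, 790 were called in that fit. Each side of the split holds a single array of 1 genotype, wild type 3 on the high side and mutant 1 on the low side, so differences within a side rest on that array and have no error of their own. Within the high and the low arrays, Ocln 1440220_at differed by 0.31 and 0.45, Grhl2 1452643_at by -0.996 and -0.472, Krt6a 1422784_at by -0.64 and -0.36 and Dsg2 1460380_at by -0.20 and -0.72. The Trp63 probe sets differed by -0.24, -0.40, -0.05 and -0.20 within the high arrays and by -0.07, 0.02, 0.07 and 0.13 within the low ones. Klf4 1417394_at was 0.75 higher in mutants within the high arrays and -0.27 within the low ones, the first against wild type 3 alone, its lowest array. What set the controls apart was not tested.

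**Figure D3:**
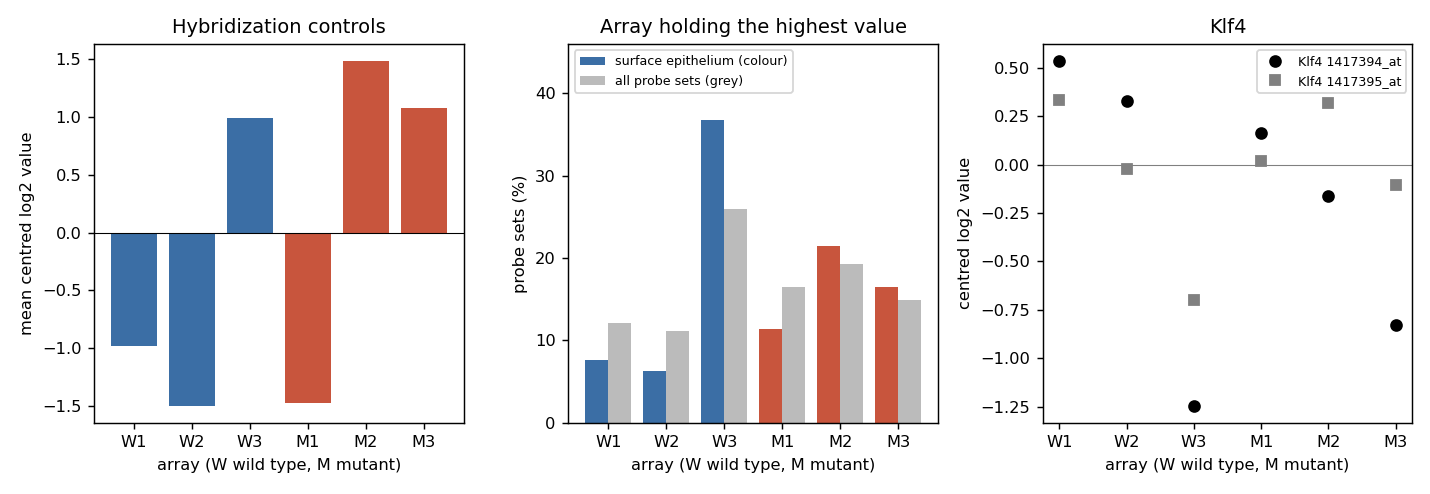
Left, the mean centred log2 value of the hybridization controls per array (W wild type, blue; M mutant, red). Middle, the percentage of probe sets whose highest value lies on each array, for the surface epithelium genes (colour) and all probe sets (grey), with wild type 3 at 36.7% against 25.9%. Right, both Klf4 probe sets, lowest in wild type 3.

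Other genes of epithelia were read from a wider list of 59, of which 54 were measured by 96 probe sets. The list was chosen with earlier results of these data known, and 1 of the 96 was called, beside 0.469% of all probe sets. Cdh1, which encodes E-cadherin, the cadherin of epithelial adherens junctions, was the 1 gene that fell, and 0 rose. It read 1.06, 1.04 and 0.78 against -0.78, -1.54 and -0.95, a difference of -2.05 (SE 0.22, interval -2.53 to -1.56, adjusted p = 0.0157). Its interval lay wholly below that of each of the 79 surface epithelium probe sets, whose lowest bound was -1.15. Without wild type 1 or mutant 2 its adjusted p was 0.112 and 0.0542, at differences of -2.00 and -1.82. The call for Cdh1 is therefore sensitive to these arrays while its size is not.

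The rest of the wider list did not pass. At an unadjusted p under 0.05 the whole list, Cdh1 included, held 14 of its 96 probe sets (14.6%), beside 11.6% of all. Of these 11 were lower (11.5% of the list, against 5.46% of all) and 3 higher (3.13%, against 6.11%), and the list's median was -0.07. Apart from Cdh1, the largest were Tfap2a, the AP-2α factor of surface ectoderm and lens, at -0.88 (SE 0.17, adjusted p = 0.0610), Cldn1, a tight junction claudin, at 0.93 (SE 0.18, adjusted p = 0.0621), and Scel, a barrier protein, at -0.82 (SE 0.20). For Cldn1 the 3 other probe sets stood between -0.15 and 0.12, and for Tfap2a the 2 others at -0.22 and -0.38. The second Scel probe set stood at 0.11 (SE 0.15). Perp, a desmosomal p63 target, was at 0.13 (SE 0.18) and the corneal enzyme gene Aldh3a1 at 0.26 (SE 0.16).

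The same arrays showed wide shifts of other cell type markers beside this, in lists chosen with earlier results of these data known. Those shifts are therefore no independent contrast. Of 33 probe sets of 17 retinal neuron and progenitor genes, 11 rose and 0 fell, beside 0.469% of all probe sets called. Their median was 1.48, with wild type array medians of -0.95, -0.39 and -0.87 against 0.67, 0.93 and 0.40 in mutants. Of 44 probe sets of 19 lens genes, 4 fell (Cdh1, Pdgfra, Maf and Dnase2b) and 0 rose, with a median of -0.47. At an unadjusted p under 0.05, 23 were lower (52.3%, against 5.46% of all) and 3 higher (6.82%, against 6.11%). The 3 higher ones were all of Pax6, at 0.75, 0.59 and 0.57. Cdh1 is a gene of the wider epithelial list too, so its call counts in both lists. The array medians of the surface epithelium genes were -0.0087, -0.03 and 0.14 for wild type against -0.07, 0.0098 and 0.01 for mutants. These overlap between the genotypes, and the retinal medians do not. The part of the retinal shift in any member's value was not tested.

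**Figure D4:**
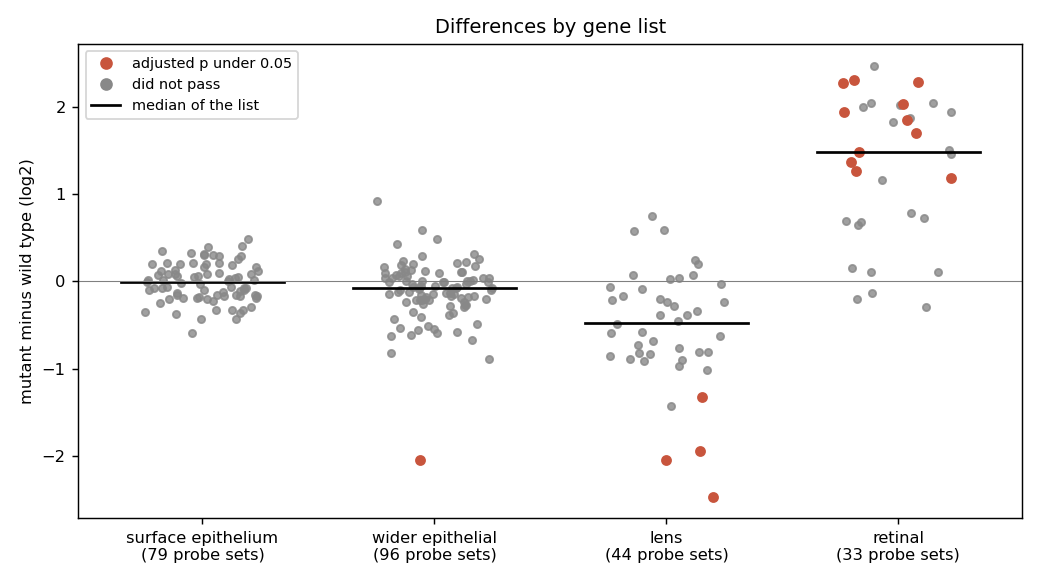
Difference between mutant and wild type (log2) of each probe set of the surface epithelium genes, the wider epithelial list, the lens markers and the retinal markers, with the list median (line). Red points passed at an adjusted p under 0.05: none of the 79, 1 of 96, 4 of 44 and 11 of 33. The Cdh1 probe set is drawn in both the wider epithelial list and the lens markers.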

How the data were processed

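The submitters' processing notes name RMA, without a version. The deposited values are treated as log2, the scale RMA writes, since no source states the base. The rows had been centred to a median of 0 (largest deviation 5e-07), which the values show and no source describes. From 100 ng of total RNA per sample, biotinylated RNA was made, per the labels' protocols.

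Of 45101 probe sets, 64 controls were set aside. limma 3.58.1 in R 4.3.3 (lmFit, eBayes, no covariate) was fitted to all arrays together, without a filter. P-values were adjusted by Benjamini and Hochberg's method over 45037 probe sets, with a threshold of 0.05. It was tested on simulated data.

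The members, lists and tests were chosen with earlier results of these data known. Named were all Trp63 probe sets, in each role the 4 genes with the smallest p, the 5 highest and 5 lowest differences, the 5 largest standard deviations, genes whose probe sets differ in sign with an unadjusted p under 0.05, any that passed in the wider list, and Notch2; other members were added with their values. Alternatives were a repeated quantile normalisation, centred arrays, array weights, a robust variance, no _x_at and _s_at probe sets, 1 probe set per gene, the replicate number as a block and each array left out; the hybridization control block was chosen after seeing the data. Promoter sequences are RefSeq's; the array files name no genome build.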

Additional observations from a re-analysis of the deposited data

How the results depend on the processing

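Under none of the 14 alternatives did a surface epithelium probe set pass; the smallest adjusted p over them was 0.0953, with array weights. Of 564 recomputed differences of the named probe sets, 36 changed sign, and none of them had passed. With the split by hybridization controls as a block, the differences that changed sign were Trp63 1459581_at (-0.036), Cst6 (-0.027), Klf4 1417394_at (0.24), Dsp 1427610_at (-0.089), Grhl2 1427046_at (0.0020) and 1431877_a_at (-0.11), and Krt6a 1422783_a_at (-0.0080) and 1427700_x_at (-0.033). With array weights they were Sprr1a (0.081) and Dsg2 1449741_at (0.039). Leaving out 1 array at a time gave ranges that cross 0 for Trp63 (-0.26 to 0.032, -0.023 to 0.25 and -0.050 to 0.12), Krt18 (-0.00035 to 0.52), Cldn4 (-0.19 to 0.076), Ly6d (-0.24 to 0.025), Cst6 (-0.026 to 0.22), Sprr1a (-0.32 to 0.12), Klf4 (-0.71 to 0.18), Dsp (-0.28 to 0.32), Klf5 (-0.48 to 0.0039), Grhl2 (-0.094 to 0.044 and -0.12 to 0.26), Krt6a (-0.042 to 0.14 and -0.11 to 0.31) and Dsg2 (-0.40 to 0.067).

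The count over all probe sets, 211, was 584 with quantile normalisation repeated, 889 with array weights, 790 with the hybridization control block and between 7 and 155 with 1 array left out. Called probe sets of the wider epithelial list, 1 as reported, were 3 with quantile normalisation (Cdh1, Cldn1 and Tfap2a), 5 with array weights (also Scel and Spint2), 4 with the control block (Cdh1, Cldn1, Tfap2a and Aqp5) and 0 to 1 with 1 array left out. The replicate number as a block gave 530 called probe sets in all, 2 in the wider list (Cdh1 and Tfap2a) and 0 members. The labels do not say that equal numbers mark a shared origin, and deviations from the group means correlated at 0.33, -0.14 and 0.26 between equal numbers, and wild type 2 correlated best with mutant 1 (0.30), so the numbers were not taken as pairs. The causes were not tested. Without absolute values, no limit from signal over background could be given.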
